A study of Mus musculus with 54 samples.

Results

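A set of 41 cell cycle and proliferation genes was followed through mouse testis and ovary. The genes were chosen by symbol and taken from both deposited count tables, where 41 of 41 were found among 26264 genes. S phase genes numbered 14 and mitotic genes 27. RNA was sequenced from 54 libraries in 18 groups of 3, with testes from males at 35 days post partum (dpp) and ovaries from females at 30 dpp. F1 animals and their dams drank water with a drug cocktail from 8.5 days post coitum until sampling. The F1 control water held 0.001% ethanol. Dose 1 held 11.3 ng/L ibuprofen (IBU), 90 ng/L 2-hydroxyibuprofen (2hIBU), 22.5 ng/L diclofenac (DCF) and 2.25 ng/L 17a ethinyl-estradiol (EE2), and dose 2 held 113, 225, 112 and 45 ng/L in the same order. F2 groups are known from the labels only by the groups of their parents: the control cross (both parents from the control group), the maternal dose 1 and dose 2 crosses (exposed mother, control father), the paternal dose 1 and dose 2 crosses (exposed father, control mother) and the biparental dose 2 cross (both parents from the dose 2 group). The design sets exposed F1 gonads against F1 controls, and gonads of F2 animals with 1 or both parents exposed against a control cross. The strain is not given in the labels, which also do not say whether the replicates A, B and C come from separate animals or litters, so p-values measure the spread between these libraries. F1 controls and F2 control crosses served as references, and the 5 other F2 crosses share 1 control cross in each tissue.

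S phase genes encode the machinery that licenses and copies DNA: the MCM helicase subunits, the loading factor Cdt1, the sliding clamp Pcna, the nucleotide-synthesis enzymes Rrm1, Rrm2 and Tyms, and the G1/S drivers Ccne1, Ccne2 and E2f1. Mitotic genes encode the kinases, cyclins, motors and checkpoint proteins that condense, align and separate chromosomes. In ovaries of this age the dividing cells are mainly granulosa cells of growing follicles, while oocytes are arrested in meiosis. In testis, spermatogonia divide by mitosis, and spermatocytes copy their DNA once and then use much of the M phase machinery for the meiotic divisions.

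The promoters of both classes are shown because the mitotic genes lay on 1 side of the control together in several ovary groups, often without the S phase genes. Promoter letters are the same in every group, and a link between them and these values was not tested. Promoters of 34 of the 41 genes were matched in RefSeq (GRCm38.p6; the count tables were built on mm39), each with 250 bases before and 50 after the annotated start. They were searched on both strands for the CHR element (TTTGAA or TTCGAA), the CCAAT box, and E2F sites (TTTCCCGC, TTTCGCGC, TTTGCCGC or TTTGGCGC; sites on opposite strands may overlap). Of 22 mitotic promoters 81.8% held a CHR element, against 16.7% of 12 S phase promoters and 19.4% of all 27025 promoters of the same length. CHR element and CCAAT box occurred together in 77.3% of the mitotic, 16.7% of the S phase and 7.7% of all promoters. E2F sites were found in 41.7% of S phase, 4.55% of mitotic and 2.32% of all promoters. A match is a string of letters and was not tested as a binding site. No promoter entry was matched for Aurkb, Ccna2, Ccne2, Foxm1, Kif20a, Mcm4 and Tpx2. Below are 4 mitotic promoters, Ccnb2 (chr9:70421505-70421804, minus strand), Cdc20 (chr4:118437294-118437593, minus strand), Aurka (chr2:172370521-172370820, minus strand) and Cenpa (chr5:30666636-30666935, plus strand), and 2 S phase promoters, Mcm3 (chr1:20820263-20820562, minus strand) and Mcm6 (chr1:128359656-128359955, minus strand), each written in the direction of its gene. Capitals mark the CHR, CCAAT and E2F matches on either strand.
Ccnb2: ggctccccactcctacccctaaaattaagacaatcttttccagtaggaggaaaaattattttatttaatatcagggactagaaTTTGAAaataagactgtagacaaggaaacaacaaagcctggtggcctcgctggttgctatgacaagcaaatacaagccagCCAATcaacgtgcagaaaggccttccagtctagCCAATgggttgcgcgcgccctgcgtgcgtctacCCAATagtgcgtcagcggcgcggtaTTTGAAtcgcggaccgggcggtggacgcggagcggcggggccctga
Cdc20: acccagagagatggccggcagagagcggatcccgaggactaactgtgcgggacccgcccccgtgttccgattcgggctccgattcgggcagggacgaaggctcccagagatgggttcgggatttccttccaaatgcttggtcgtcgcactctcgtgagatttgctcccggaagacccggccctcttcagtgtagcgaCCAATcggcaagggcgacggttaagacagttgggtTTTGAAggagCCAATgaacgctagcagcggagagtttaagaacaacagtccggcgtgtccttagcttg
Aurka: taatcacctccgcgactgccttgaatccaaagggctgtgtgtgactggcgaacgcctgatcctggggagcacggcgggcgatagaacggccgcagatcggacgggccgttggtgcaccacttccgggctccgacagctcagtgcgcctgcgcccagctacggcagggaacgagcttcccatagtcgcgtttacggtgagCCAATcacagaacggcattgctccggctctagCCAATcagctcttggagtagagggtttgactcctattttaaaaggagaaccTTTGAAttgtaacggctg
Cenpa: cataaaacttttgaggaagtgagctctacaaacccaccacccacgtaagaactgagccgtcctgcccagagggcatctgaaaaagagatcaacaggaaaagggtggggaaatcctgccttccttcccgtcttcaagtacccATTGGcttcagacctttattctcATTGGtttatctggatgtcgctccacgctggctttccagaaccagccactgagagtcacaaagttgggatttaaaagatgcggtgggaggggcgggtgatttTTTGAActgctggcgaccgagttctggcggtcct
Mcm3: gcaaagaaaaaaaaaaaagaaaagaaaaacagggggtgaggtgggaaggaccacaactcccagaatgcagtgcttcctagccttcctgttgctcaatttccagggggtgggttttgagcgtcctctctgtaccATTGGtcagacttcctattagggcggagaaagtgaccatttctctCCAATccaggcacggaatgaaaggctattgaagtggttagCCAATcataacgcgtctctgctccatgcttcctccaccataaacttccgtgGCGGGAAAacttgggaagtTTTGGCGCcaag
Mcm6: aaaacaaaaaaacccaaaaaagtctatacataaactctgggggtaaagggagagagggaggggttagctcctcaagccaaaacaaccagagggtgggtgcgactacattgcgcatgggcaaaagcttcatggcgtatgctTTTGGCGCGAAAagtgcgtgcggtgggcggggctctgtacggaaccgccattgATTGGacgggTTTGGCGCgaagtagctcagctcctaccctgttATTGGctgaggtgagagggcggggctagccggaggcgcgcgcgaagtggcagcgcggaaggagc
Ccnb2 holds 2 CHR elements and 3 CCAAT boxes, and Cdc20, Aurka and Cenpa hold 1 CHR element and 2 CCAAT boxes each. Mcm3 holds 2 E2F matches and Mcm6 holds 3, with CCAAT boxes in both and no CHR letters in this window.

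Total counts per library ran from 31553824 to 122396600, and every one of the 41 genes passed the filter on low counts in each tissue and generation. Levels are in CPM, counts scaled to a common library size with edgeR's TMM factors, and changes are log2 fold changes from edgeR's quasi-likelihood test, adjusted over all genes tested. Shares of all genes are those of the edgeR fits with no library left out. Counts from DESeq2, or from fits that leave out libraries, have no such share beside them and are not to be set against these shares. Some libraries stood apart on the first 2 principal components: dose 2 B and C in F1 testis, control A in F1 ovary, and the maternal dose 1 C and biparental dose 2 C libraries in F2 ovary. The summed level of 10 elongating spermatid markers was 1663 CPM in F1 ovary control A, against 14.4 to 116 CPM in the other F1 ovaries, 0.433 to 1.77 CPM in F2 ovaries and 10388 to 31582 CPM in testis. In testis the 13 spermatocyte markers summed to 1740 to 2378 CPM, and in ovary the 12 granulosa markers to 6218 to 11933 CPM, so both tissues held the markers of their labels. Because these are whole organs, fewer cells of a type and less RNA per cell cannot be told apart.

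The S phase and mitotic classes lay far apart in testis and close together in ovary. In testis the mean log2 CPM over the 14 S phase genes was 4.28 to 4.57 and that over the 27 mitotic genes 5.99 to 6.18 in 27 libraries. In ovary the same means were 5.73 to 6.42 and 5.56 to 6.37. Per kilobase of exon, testis was led by Ccnb2, a B-type cyclin, at a median of 95.2 CPM per kb. It was followed by the microtubule depolymerase Kif2c at 87.8, the spindle kinase Aurka at 72.6 and the anaphase activator Cdc20 at 69.2 CPM per kb. The lowest in testis were Cdt1 at 1.79, E2f1 at 1.92, the centromere histone Cenpa at 2.25 and Ccna2, the S and G2 cyclin, at 2.78 CPM per kb. In ovary the order began with Pcna at 96.3 CPM per kb, then Mcm7 at 58.2, the topoisomerase Top2a at 51.1 and Mcm6 at 47.0. It ended with the E cyclins Ccne1 at 4.73 and Ccne2 at 3.98 CPM per kb. The lengths are those of the annotated exons, not of the transcripts used in each tissue.

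**Figure D1:**
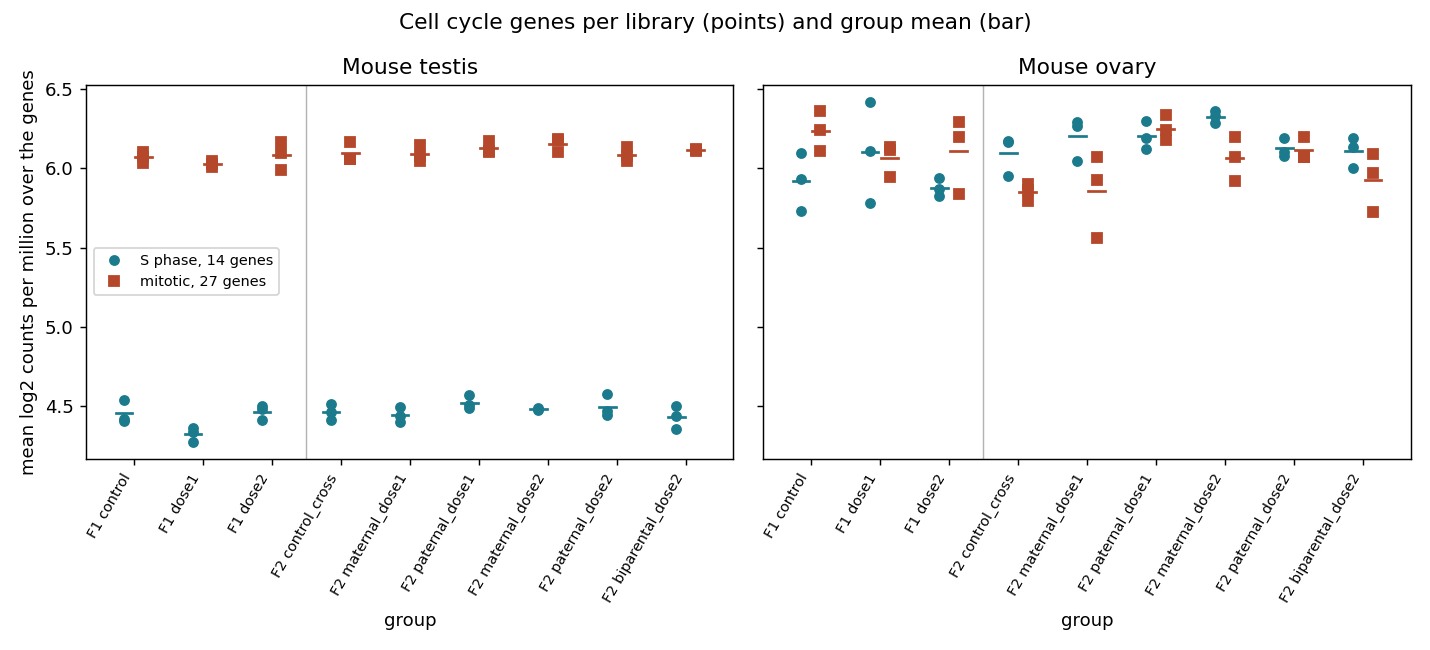
Mean log2 CPM over 14 S phase genes (circles) and 27 mitotic genes (squares) on the y axis for each library in each of the 9 groups of each organ on the x axis, with group means as bars. In testis S phase genes sit at 4.28 to 4.57 and mitotic genes at 5.99 to 6.18; in ovary the ranges of the classes overlap.

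Most S phase genes were higher in ovary and most mitotic genes higher in testis. In a fit of the 12 unexposed libraries, 36 of 41 genes differed between the organs with adjusted p under 0.05, where 88.8% of all genes did, so the share alone sets these genes apart from nothing. Of the 14 S phase genes 10 were higher in ovary and 3 in testis, and of the 27 mitotic genes 7 were higher in ovary and 16 in testis, against 44.3% and 44.5% of all genes. The organs differ in sex and age, and the lists were not tested as such. Relative to this scaling, RLE size factors shifted the median of all genes from 0.00 to 0.28 and library totals to -0.41, and the 41 genes then split into 23 higher in testis and 15 in ovary, or 16 and 21, in place of 19 and 17.

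Cdt1 and the helicase subunits Mcm2, Mcm3, Mcm4, Mcm5 and Mcm6 were higher in ovary, whereas 41 other replication licensing and fork genes split into 15 higher in testis and 19 in ovary. Mcm2, a helicase subunit, was at 16.1 ± 2.65 CPM in testis and 96.5 ± 13.6 CPM in ovary (SD, n = 6 each), 6.03-fold higher in ovary. Mcm4 and Mcm6 were 6.00-fold higher each and Mcm3 3.63-fold. Cdt1, which loads the helicase, was 7.48-fold higher in ovary, at 35.5 ± 5.68 against 4.73 ± 0.919 CPM. Mcm5 was 2.93-fold, E2f1 4.28-fold and the ribonucleotide reductase subunit Rrm2 2.68-fold higher. Pcna was 1.24-fold higher in ovary, a call that was lost under 8 alternatives. In the other direction Mcm7 was 1.70-fold, Rrm1 1.56-fold and Ccne2 2.94-fold higher in testis. Mcm7 thus stood against Mcm2 to Mcm6, while Ccne1 did not differ detectably in this fit (6.73 ± 0.841 against 7.09 ± 0.751 CPM, edgeR adjusted p = 0.577).

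The mitotic genes split into those high in testis and a smaller group high in ovary. Kif2c showed the largest testis excess, at 334.7 ± 32.2 CPM against 43.0 ± 11.8 CPM (log2 fold change 2.99 ± 0.16 SE). Aurka followed at 2.15 ± 0.10 SE, then the transcription factor Foxm1 at 2.02 ± 0.18 and the kinetochore proteins Cenpe at 1.90 ± 0.26 and Cenpf at 1.81 ± 0.26. Every testis library was above every ovary library for each of these 5 genes. Cenpa, by contrast, was 7.96-fold higher in ovary (40.4 ± 5.01 against 5.15 ± 1.38 CPM) and Ccna2 7.62-fold higher. The related Aurora kinases went opposite ways: Aurka was higher in testis, and Aurkb, the kinase of the chromosomal passenger complex, was 2.72-fold higher in ovary. The B cyclins Ccnb1 and Ccnb2 were both higher in testis, by 0.52 and 1.74 on the log2 scale (for Ccnb1 0.11, and no call, with library totals), while their partner kinase Cdk1 was 1.60-fold higher in ovary. The kinase Plk1 was 2.49-fold and Cdc20 2.35-fold higher in testis. Mki67, the antigen of dividing cells, was 2.09-fold higher in ovary, with overlapping libraries. Top2a, Tpx2, Birc5 and Kif23 had edgeR adjusted p-values of 0.0729 to 0.750. The sign for Top2a, at 0.05, and for Ccne1, at -0.07, turned under other scalings. Top2a passed the threshold as higher in testis in 2 alternatives (0.33). With library totals it passed as higher in ovary (-0.36, edgeR adjusted p = 0.034). Ccne1 passed in 1 alternative as higher in ovary (-0.49).

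**Figure D2:**
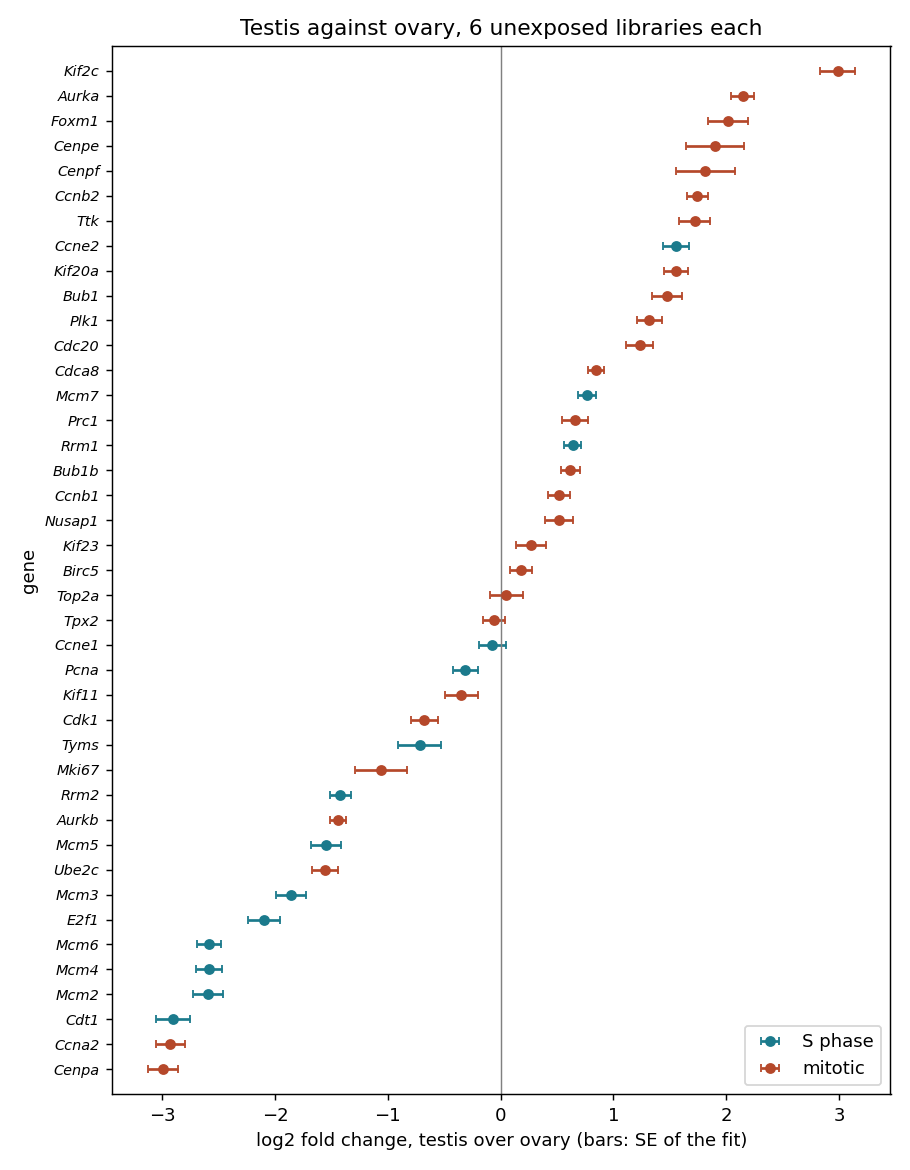
Log2 fold change of testis over ovary for each of the 41 genes (x axis; points with SE of the edgeR fit), ordered by size, from 6 unexposed libraries of each organ. Kif2c at 2.99 is highest and Cenpa at -2.99 lowest; most S phase genes lie left of 0 and most mitotic genes right of it.

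Exposed F1 testes had no gene of the set past the threshold. With edgeR 0 of 41 genes passed at dose 1 and 0 at dose 2, DESeq2 called 0 in both, and 0 had an unadjusted p under 0.05 in either, where 3.18% and 1.93% of all genes did (0.021% and 0.00526% at the adjusted threshold). At dose 1 fold changes of 13 of 14 S phase genes were below 0, with a median of -0.14 against -0.01 over all genes. Over the 41 genes Spearman's rho of the dose 1 fold changes with exon length was -0.45, and the part of length was not tested. Mcm2 was at 13.3, 13.7 and 13.7 CPM at dose 1 and at 16.3, 14.4 and 15.5 CPM in controls, without overlap (log2 fold change -0.18). It was 1 of 5 genes of the set that were lower in every dose 1 library. The share of all genes that were is not given here, so Mcm2 is a single example. Pcna was at 74.7, 94.2 and 85.0 CPM in controls, at 78.2, 80.9 and 84.9 CPM at dose 1, and at 79.4, 76.8 and 197 CPM at dose 2. The single high value is dose 2 C, which was highest of the 9 F1 testes for 14 genes of the set and lowest for 12. Cenpa was at 18.6 CPM there, against 3.29 to 8.83 CPM in the other F1 testes, and Cdc20 at 306 against 124 to 196 CPM. In the same library elongating spermatid markers summed to 31582 CPM and macrophage markers to 338 CPM, the highest of the 9 for both, and their part in the values was not tested. Without dose 2 B and C, which leaves dose 2 A alone and so no replicate of that dose, the median of the S phase genes was -0.04 and that of the mitotic genes -0.01. Leaving out dose 2 B alone gave 5 genes under an unadjusted p of 0.05. Between the doses Ccne2 was the only gene under 0.05 (3.31% of all genes were, and 0.0263% passed), at 25.1, 38.0 and 52.3 CPM at dose 2 and 21.2 to 30.0 CPM at dose 1, with overlap (0.60 ± 0.25 SE, edgeR adjusted p = 1).

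Exposed F1 ovaries also had 0 genes past the adjusted threshold at either dose, with edgeR and with DESeq2, as did 0% of all genes. The classes lay on opposite sides of 0 at dose 1. All 14 S phase genes were above 0 at dose 1 (median 0.18, with that of all genes at 0) and 26 of 27 mitotic genes below 0 (median -0.19). The 14 oocyte markers summed to 750 to 875 CPM at dose 1 and to 1047 to 1138 CPM in controls, without overlap and with none at 0, and their part in these values was not tested. Foxm1, which drives the transcription of mitotic genes, was at 70.2, 74.7 and 65.8 CPM at dose 1 and at 87.0, 91.4 and 76.0 CPM in controls. Nusap1, a spindle-binding protein, was at 54.5, 49.7 and 50.1 CPM against 61.4, 64.8 and 58.3 CPM. For both, each exposed library was below each control, with log2 fold changes of -0.27 ± 0.09 and -0.26 ± 0.10 SE (unadjusted p = 0.0181 and 0.0251, edgeR adjusted p = 0.55 for each). These were the only 2 of the 41 genes with an unadjusted p under 0.05, where 8.33% of all genes had one, and 8 mitotic genes were lower in every dose 1 library, where 5.5% of all genes were. S phase genes spread widely within the dose 1 group: Mcm2 was at 117, 161 and 97.5 CPM, against 85.6, 118 and 101 CPM in controls. Mcm5 was at 108, 139 and 77.1 CPM, against 72.5, 97.0 and 86.7 CPM. Library B was the high one and library C the low one for both, so the S phase side rested on single libraries. Without dose 1 B 6 of 14 S phase genes were above 0 (median -0.02), and without dose 1 C the median was 0.36 with 8 genes under an unadjusted p of 0.05. Without control A, the library with spermatid transcripts, 11 of 14 were above 0 (median 0.11). The mitotic median was -0.25 to -0.11 when 1 library was left out, with 0 to 6 genes under 0.05 (0 without control B or dose 1 C, 6 without control C).

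At dose 2 the mitotic genes were again mostly below the controls, in 25 of 27 (median -0.13), while S phase genes were 7 above and 7 below 0. The oocyte markers summed to 939 to 1167 CPM at dose 2, overlapping the controls, and the spermatogonia markers to 386 to 415 CPM against 355 to 359 CPM, a difference whose part was not tested. Ccne2, the E cyclin, was at 12.0, 11.9 and 12.1 CPM at dose 2, at 15.7, 19.5 and 13.8 CPM in controls and at 16.6, 21.8 and 15.6 CPM at dose 1. The dose 2 libraries were below all the others, with a log2 fold change of -0.44 ± 0.16 SE against the controls (unadjusted p = 0.0244, edgeR adjusted p = 0.814) and -0.59 ± 0.16 SE against dose 1 (unadjusted p = 0.0062, edgeR adjusted p = 0.809). It was the only gene of the 41 under 0.05 in either test, where 3.75% and 6.02% of all genes were. Dose 2 A was the lowest of the 9 F1 ovaries for 24 of the 41 genes. All 14 S phase genes were lower at dose 2 than at dose 1 (median -0.23, with that of all genes at 0), and 21 of 27 mitotic genes were higher (median 0.07). Without dose 1 C 11 S phase genes were under an unadjusted p of 0.05 in that test, and the share of all genes in that fit is not given here. Both doses share their controls, and the mitotic median at dose 2 was 0.01, with 14 of 27 genes above 0, without dose 2 A.

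**Figure D3:**
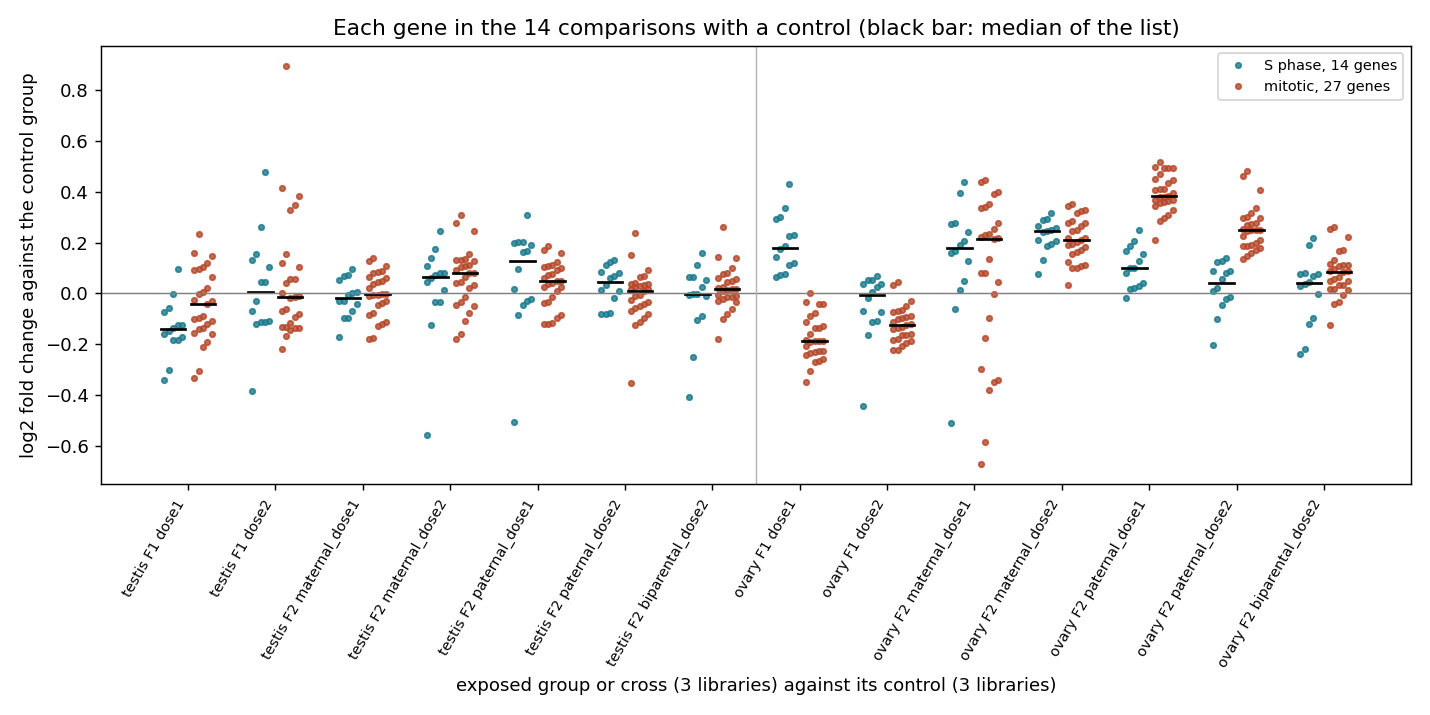
Log2 fold change (y axis) of each S phase gene (teal) and mitotic gene (rust) in the 14 comparisons with a control (x axis), with the median of each class as a black bar. Medians of mitotic genes are 0.38 in F2 ovary of the paternal dose 1 cross and -0.19 in F1 ovary at dose 1; the 5 crosses of each F2 tissue share 1 control cross.

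In F2 testis Tyms, thymidylate synthase, was the gene of the set nearest to the threshold against the control cross. It was at 30.4, 23.8 and 26.4 CPM in the control cross. In the maternal dose 2 cross it was at 17.7, 21.4 and 15.7 CPM, in the paternal dose 1 cross at 22.0, 18.5 and 16.3 CPM, and in the biparental cross at 20.1, 20.6 and 20.0 CPM. All 9 of these libraries were below the lowest control. In the maternal dose 1 cross Tyms was at 30.1, 26.5 and 22.4 CPM and in the paternal dose 2 cross at 25.1, 28.1 and 23.0 CPM, overlapping the controls. Tyms thus had log2 fold changes of -0.56 ± 0.13 SE (maternal dose 2), -0.51 ± 0.13 SE (paternal dose 1) and -0.41 ± 0.13 SE (biparental), with adjusted p = 0.0871, 0.133 and 0.537 from edgeR. With DESeq2 the adjusted p was 0.00676 in the maternal dose 2 and 0.0274 in the paternal dose 1 cross. Across generations F1 testes had 10.6 to 21.4 CPM of Tyms, and these were scaled and fitted apart.

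In the maternal dose 2 testes 19 of 27 mitotic genes were above 0 (median log2 fold change 0.08, with that of all genes at 0.00), and 5 were higher in every library than the control cross. Cdc20 was at 131, 128 and 149 CPM, against 102, 121 and 114 CPM in the control cross. Aurkb was at 15.0, 15.3 and 16.8 CPM against 12.7, 13.7 and 11.6 CPM, and Cdca8, its partner in the passenger complex, at 72.0, 75.3 and 73.3 CPM against 60.8, 65.9 and 59.6 CPM. The groups did not overlap for these 3 genes, with log2 fold changes of 0.28 ± 0.08, 0.31 ± 0.09 and 0.24 ± 0.07 SE (edgeR adjusted p = 0.154, 0.138 and 0.132). Mcm2 (0.24) and Ccnb1 (0.16) were also higher and Kif2c (-0.16) lower in every library of this cross, and Cenpf (-0.18) was lower with overlap. In all, 8 of 41 genes were higher in every library, where 10.9% of all genes were. After adjustment 0 of 41 genes passed with edgeR (0.372% of all genes did), and DESeq2 called 2, Tyms and Cdca8. At an unadjusted p under 0.05 there were 8 genes, 5 higher and 3 lower, in a comparison where 15.7% of all genes were under it. The summed spermatogonia markers were at 183 to 193 CPM in this cross and at 163 to 177 CPM in the control cross, and library C of this cross, the highest of the 18 for 9 genes of the set, had a Spearman's rho of 0.42 between GC content and deviation over all genes. Their part in these values was not tested. Leaving out 1 library gave 5 to 9 genes under 0.05.

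The other crosses gave fewer such genes in testis. In the paternal dose 1 cross Mcm2 was at 16.2, 13.7 and 15.2 CPM against 12.7, 11.5 and 12.2 CPM in the control cross (log2 fold change 0.31 ± 0.10 SE, edgeR adjusted p = 0.189). Mcm3 (0.20), Cdca8 (0.16) and Top2a (0.11) were also higher there in each library, and the share of all genes that were is not given here. Including Tyms, 5 of 41 genes had an unadjusted p under 0.05, against 12.5% of all genes, and 0 passed with edgeR (0.201% of all genes did). Without control cross B there were 11 under 0.05, and without control cross C 3. In the paternal dose 2 cross Cenpa was at 3.02, 2.91 and 2.74 CPM against 3.88, 3.69 and 3.50 CPM (-0.35 ± 0.14 SE, edgeR adjusted p = 0.946). Rrm1, the large reductase subunit, was lower in the maternal dose 1 cross, at 131, 127 and 141 CPM against 147, 158 and 145 CPM (-0.17 ± 0.06 SE, edgeR adjusted p = 0.73). At the unadjusted threshold there were 2 genes in the maternal dose 1 cross (Rrm1 and Cenpe), 1 in the paternal dose 2 cross (Cenpa) and 1 in the biparental cross (Tyms), where 6.54%, 5.02% and 7.02% of all genes were under it and 0.0103%, 0.00516% and 0.0155% passed. DESeq2 called 0 genes of the set in these 3 crosses, and 1, Tyms, in the paternal dose 1 cross.

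In F2 ovary all 27 mitotic genes were above 0 in the paternal dose 1, paternal dose 2 and maternal dose 2 crosses, 23 were in the biparental and 18 in the maternal dose 1 cross. These comparisons share the control cross, and genes measured in the same libraries are not separate observations. The mean log2 CPM over the mitotic genes was 5.853 in the control cross, 5.855 in the maternal dose 1 and 6.252 in the paternal dose 1 cross. F1 ovary controls, scaled apart, were at 6.238. In the paternal dose 1 cross the 27 genes had a median log2 fold change of 0.38 (range 0.21 to 0.52), against -0.01 over all genes. The 3 libraries of the cross were above the 3 controls for 24 of the 27, where 6.9% of all genes were, and 17 had an unadjusted p under 0.05, where 2.7% of all genes were higher at that level. None passed with edgeR after adjustment (0 of 41, with 0.00575% of all genes called), and DESeq2 called 1, Kif2c (adjusted p = 0.0404). S phase genes in the same ovaries had a median of 0.10, and 0 of 14 had an unadjusted p under 0.05. Leaving out 1 library left the mitotic median at 0.34 to 0.42, and 10 to 16 genes under 0.05, fewest without paternal dose 1 B.

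Cdc20 was at 98.7, 118 and 104 CPM in the paternal dose 1 ovaries and at 74.7, 74.8 and 78.1 CPM in the control cross (log2 fold change 0.50 ± 0.12 SE, unadjusted p = 0.000676, edgeR adjusted p = 0.512). Kif2c was at 54.7, 65.4 and 57.1 CPM against 41.1, 41.8 and 42.8 CPM (0.49 ± 0.11 SE, edgeR adjusted p = 0.488). Kif23, a motor of the midzone needed for cytokinesis, was at 60.4, 76.9 and 67.0 CPM against 52.0, 42.1 and 48.6 CPM (0.52 ± 0.18 SE, edgeR adjusted p = 0.676). In each of these genes the lowest library of the cross was above the highest control. Kif20a, another cytokinesis motor (0.45), and Tpx2, the activator of Aurora A (0.43), followed, and Ccnb1, Ccna2, Ccnb2, Plk1, Aurka and Aurkb were 0.31 to 0.41 higher. Mki67 was at 201, 202 and 202 CPM, and its controls at 184, 97.3 and 148 CPM were more spread than the exposed libraries.

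The paternal dose 2 cross showed the same side for all 27 mitotic genes, with smaller sizes. The median was 0.25, 19 of 27 were higher in every library (5.74% of all genes were), and 7 had an unadjusted p under 0.05 (1.98% of all genes were higher at that level). Tpx2 was at 112, 105 and 101 CPM against 89.1, 79.9 and 89.7 CPM (0.30 ± 0.11 SE, edgeR adjusted p = 1). Kif23 (0.41), Aurka (0.32), Kif2c (0.30), Cdc20 (0.28), Cdca8 (0.27) and Cenpa (0.24) were the others. With edgeR and with DESeq2 0 of 41 passed, and with edgeR 0% of all genes. S phase genes had a median of 0.04. Leaving out 1 library left the mitotic median at 0.21 to 0.27, and 0 (without paternal dose 2 A) to 6 genes under 0.05.

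Both classes lay above 0 in the maternal dose 2 ovaries. All 14 S phase genes (median 0.24) and all 27 mitotic genes (median 0.21) were above 0, against a median of -0.01 over all genes. For 11 of 14 S phase and 11 of 27 mitotic genes each library was above each control, where 6.8% of all genes were. Rrm1 was at 141, 142 and 145 CPM against 120, 125 and 116 CPM (0.25 ± 0.12 SE), and Bub1b, the checkpoint kinase, at 98.0, 93.9 and 99.2 CPM against 79.6, 68.7 and 79.9 CPM (0.35 ± 0.13 SE). Their edgeR adjusted p-values were 0.826 and 0.722. Mcm6, Tyms, Foxm1, Kif2c and Tpx2 were 0.24 to 0.33 higher in every library, so 7 of the 41 genes had an unadjusted p under 0.05, where 6% of all genes did. With 1 library left out there were 1 (without maternal dose 2 C) to 5. In this cross 0 genes passed with edgeR or DESeq2, and 0% of all genes passed with edgeR. In the biparental ovaries the medians were 0.04 for S phase and 0.08 for mitotic genes, and 0 of 41 had an unadjusted p under 0.05, against 9% of all genes; 0 passed with either tool (0% of all genes).

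Other markers moved in the same F2 ovaries. The 8 luteal markers summed to 2229 to 3002 CPM in the control cross, 1035 to 2017 in the paternal dose 1, 1194 to 1934 in the paternal dose 2, 939 to 1291 in the maternal dose 2 and 1379 to 1644 in the maternal dose 1 cross, and 1847 to 2698 CPM in the biparental cross. The 8 theca markers summed to 7437 to 8156 CPM in the control cross, and to 4601 to 6859 CPM in the maternal and paternal crosses. The 12 granulosa markers summed to 9119 to 10979 CPM in the control cross, 10690 to 11133 in the paternal dose 1, 7782 to 9184 in the paternal dose 2 and 9146 to 9718 CPM in the maternal dose 2 cross. No marker of these 3 lists was at 0 in any F2 ovary, and their part in the mitotic values was not tested. The biparental dose 2 C library held 902 CPM of macrophage and 147 CPM of lymphocyte markers, the highest of the F2 ovaries, and was lowest of the 18 for 11 genes of the set. Without it and the maternal dose 1 C library, the biparental mitotic median was 0.17 and 27 of 27 genes were above 0. That fit was added after seeing the data. In it 0 genes of the set passed the adjusted threshold in the paternal dose 1 and paternal dose 2 crosses. Without control cross A, the lowest of the 18 for 14 genes, 6 of 14 S phase genes were above 0 in the paternal dose 1 cross, and the mitotic median was 0.42.

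**Figure D4:**
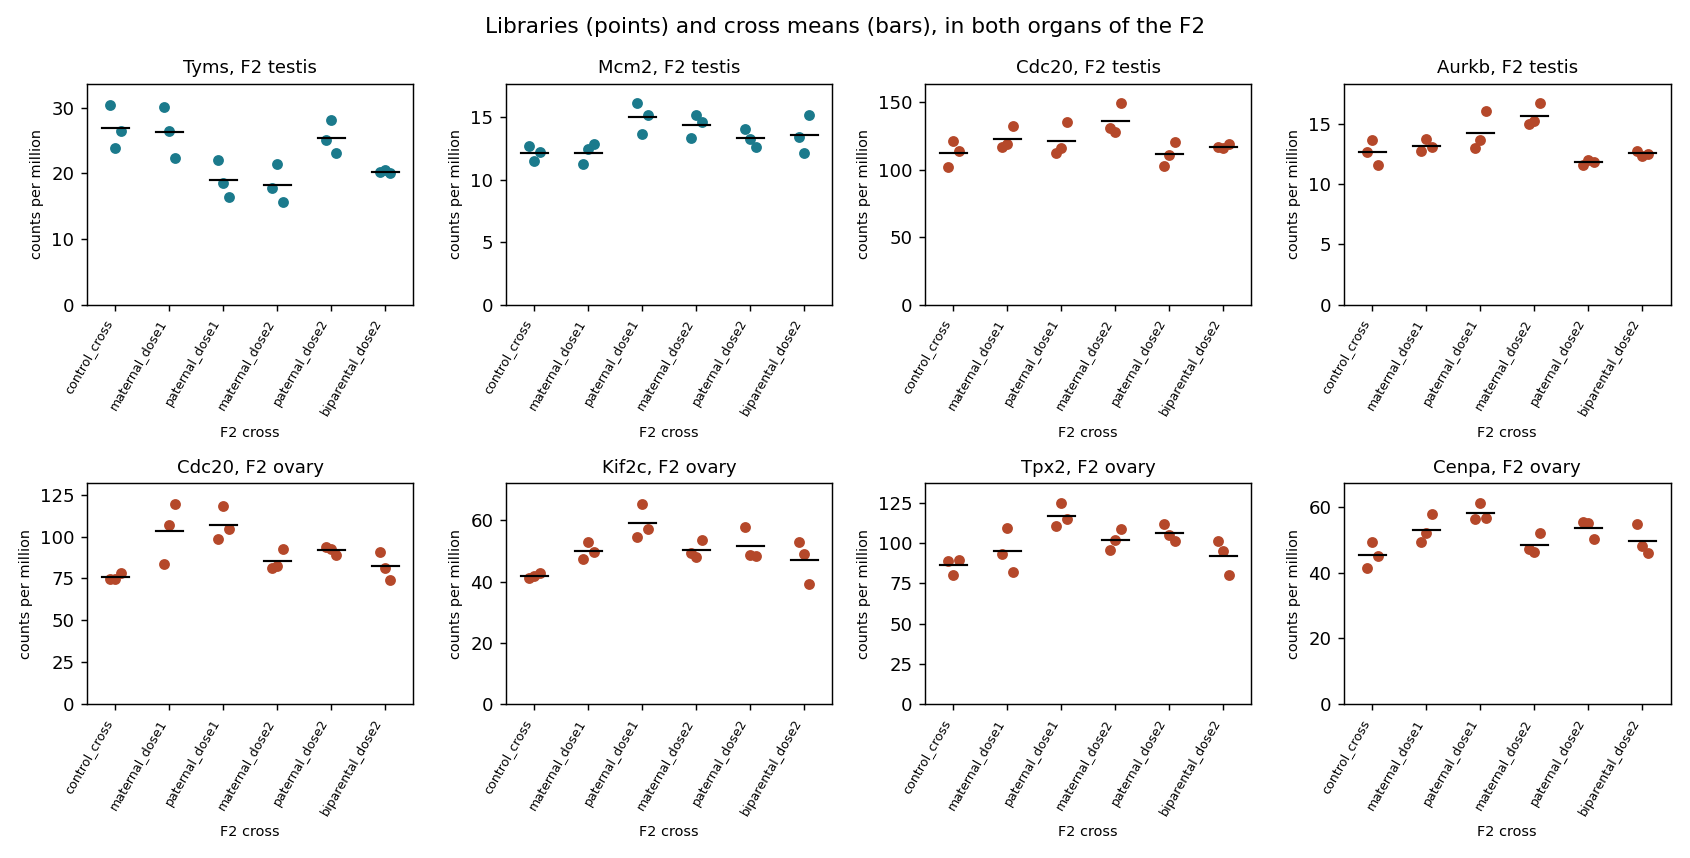
Library-scaled CPM (y axis, from 0) of 4 genes in F2 testis (upper row) and 4 in F2 ovary (lower row) by cross (x axis); points are libraries and bars the mean of 3. Tyms in testis is at 15.7 to 22.0 CPM in the maternal dose 2 and paternal dose 1 crosses, and Cdc20 in ovary at 98.7 to 118 CPM in the paternal dose 1 cross against 74.7 to 78.1 CPM in the control cross.

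The maternal dose 1 ovaries had both signs among the mitotic genes, and library C held the lowest values. In library C Cenpe was at 7.97, Cenpf at 11.1, Bub1 at 9.45, Kif11 at 12.0 and Mki67 at 56.5 CPM, where the control cross had 26.9 to 45.1, 40.7 to 56.0, 34.0 to 38.4, 37.5 to 47.9 and 97.3 to 184 CPM. Ccne2 was at 2.35 CPM in C, and at 11.5 and 13.6 CPM in A and B. In the same library Mcm2 was at 210 CPM against 111 and 159 CPM in A and B, and Mcm5 at 194 against 105 and 137 CPM. Library C was the lowest of the 18 F2 ovaries for 12 genes of the set and the highest for 14.

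The extremes of library C differed in the base composition of the transcripts. The 12 genes lowest in library C had transcripts of 36.3% to 46.6% GC, and the 14 highest had 51.4% to 58.8% GC. Over the 41 genes Spearman's rho between the GC content and the deviation of library C from the median of the 18 libraries was 0.90, as a description of genes that share 1 library. In the 17 other F2 ovaries it was -0.51 to 0.61. Over the 15169 tested protein-coding genes with a GC value it was 0.66 in library C and -0.32 to 0.34 in the others. With exon length rho was -0.49 over the 41 genes in library C, and -0.07 over all genes. Library B did not share the GC order (rho 0.18), but 3 genes of long transcripts, Cenpf, Mki67 and Cenpe (11130, 10061 and 7910 bases of exon), were at 33.5, 110 and 20.8 CPM there, with the lowest deviations of that library. Long transcripts as a whole were not lower in library B. Its rho with exon length was 0.05 over the 41 genes and 0.50 over all genes, the latter the highest of the 18 F2 ovaries. The cause was not tested.

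**Figure D5:**
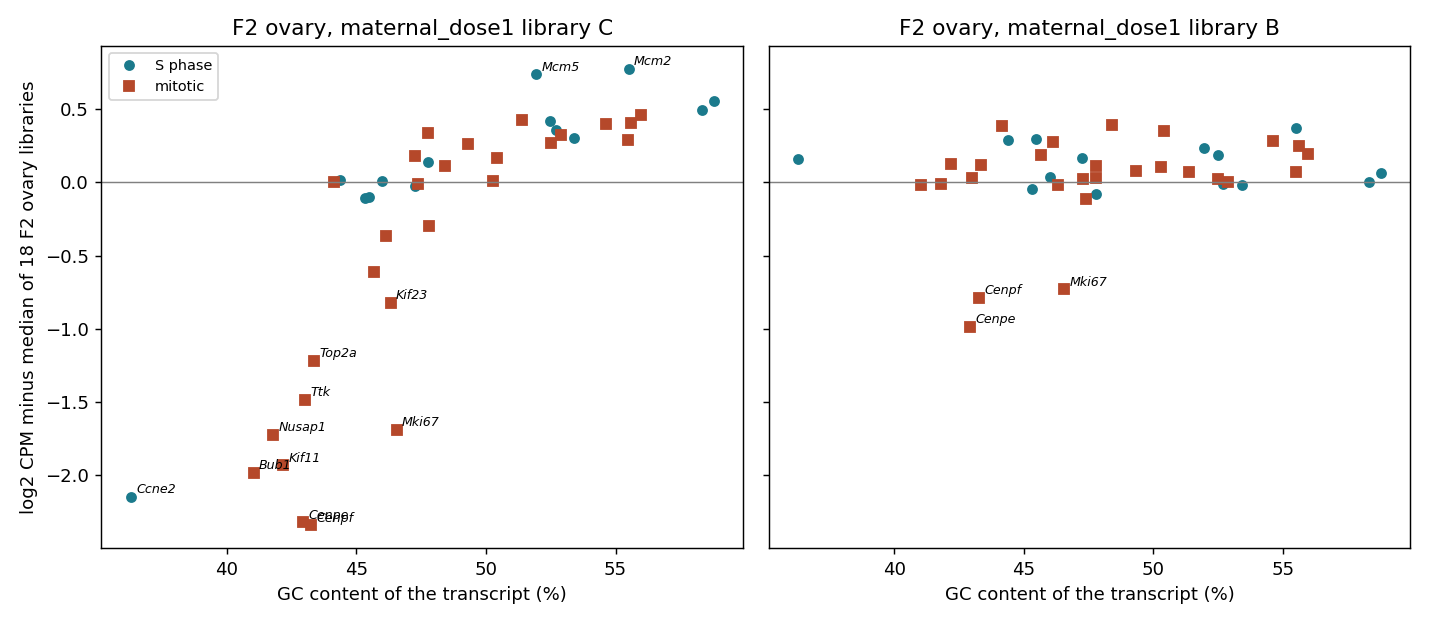
Deviation of log2 CPM from the median of the 18 F2 ovaries (y axis) against the GC content of the transcript in percent (x axis) for the 41 genes in libraries C and B of the maternal dose 1 cross. In C the points climb from -2.34 for Cenpf to 0.78 for Mcm2; in B Cenpe, Cenpf and Mki67 lie apart below the rest.

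With all 3 libraries 12 genes had an unadjusted p under 0.05 in the maternal dose 1 ovaries, all higher, where 8.28% of all genes were higher at that level. Cdc20 was at 83.6, 107 and 120 CPM (log2 fold change 0.45 ± 0.12 SE, edgeR adjusted p = 0.351) and Cdca8 at 54.7, 57.6 and 72.1 CPM (0.35 ± 0.11 SE, edgeR adjusted p = 0.353). Aurka (0.34), Kif2c (0.25) and Cenpa (0.23) were also above every control, so 5 genes were, against 4.48% of all genes. With edgeR and with DESeq2 0 of 41 passed, and with edgeR 0% of all genes. Without library C the mitotic median was 0.18, with 24 of 27 genes above 0 and 7 under 0.05, and the S phase median was 0.07 in place of 0.18. Without library A, so with C weighing more, 11 genes passed with edgeR: Mcm2, Mcm3, Mcm5, Bub1b, Cdc20, Cdca8, Foxm1, Plk1 and Kif20a higher, Cenpe and Cenpf lower. The share of all genes that passed in this fit is not given here, so the count is not a result about the set.

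Direct tests between crosses of the same dose gave 0 genes of the set past the threshold with edgeR. In testis the maternal dose 2 cross was above the paternal dose 2 cross for Aurkb (15.0, 15.3 and 16.8 CPM against 11.7, 12.1 and 11.8 CPM; 0.41 ± 0.09 SE, edgeR adjusted p = 0.0647), and Cdc20 (0.29), Ccnb1 (0.24), Cdca8 (0.18), Bub1b (0.19) and Cdk1 (0.17) were above it in every library too. What share of all genes was higher in every library is not given for this test, so these genes are single examples. Tyms was at -0.48 in the same test. DESeq2 called 4 genes there: Cdc20, Aurkb and Ccnb1 higher and Tyms lower. The share of all genes that DESeq2 called is not given here. With edgeR 12 genes had an unadjusted p under 0.05, in a test where 16% of all genes were and 0.119% passed, and without maternal dose 2 C or paternal dose 2 A 7 were. Over the 41 genes Spearman's rho of these fold changes with exon length was -0.49. Tyms was 0.48 higher in the maternal than the paternal dose 1 testes (edgeR adjusted p = 0.206), and DESeq2 called it; 6 genes of the set were under 0.05, against 11.5% of all genes, of which 0.0413% passed. In ovary the maternal dose 1 cross was lower than the paternal dose 1 cross for Cenpe (-1.15 ± 0.36 SE), Cenpf (-1.08 ± 0.35) and Mki67 (-0.88 ± 0.28), each with an edgeR adjusted p of 0.374. Of the 41 genes 11 were under 0.05, against 12.6% of all genes (0.00575% passed), and without library C of the maternal cross 4 were, and without paternal dose 1 B 3. Without library A of the maternal cross, so with C weighing more, 5 genes passed with edgeR: Cenpe (-1.81), Cenpf (-1.66) and Mki67 (-1.27) lower, Mcm2 (0.56) and Mcm5 (0.53) higher. For that fit, too, the share of all genes that passed is not given here. In the maternal against the paternal dose 2 ovaries all 14 S phase genes were above 0 (median 0.20), Mcm3 by 0.29 and Mcm4 by 0.25, and 10 were higher in every library, where 5.7% of all genes were. Mcm3 was at 153, 146 and 150 CPM against 121, 126 and 121 CPM (edgeR adjusted p = 1). Mcm3 and Mcm4 were the 2 genes under 0.05, where 2.38% of all genes were and 0% passed.

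Among 133 other measured cell cycle genes 2 passed with edgeR in the 20 exposure comparisons, both in F2 testis. Gins1, a subunit of the replicative helicase, was at 16.6, 13.6 and 15.4 CPM in the maternal dose 1 cross and at 9.53, 8.30 and 6.96 CPM in the control cross (0.88 ± 0.14 SE, edgeR adjusted p = 0.0474, where 0.0103% of all genes passed). It also rose against the paternal dose 1 cross, at 7.87, 8.59 and 9.94 CPM (0.79 ± 0.14 SE, edgeR adjusted p = 0.0478, where 0.0413% passed). The other 3 exposed crosses were at 10.1 to 15.0 CPM, above every control library, and 2 of them overlapped the maternal dose 1 cross. Cdkn2a, which encodes inhibitors of CDK4/6 and of MDM2, was at 4.24, 3.63 and 4.86 CPM in the maternal dose 2 cross and at 2.16, 2.90 and 2.12 CPM in the control cross (0.83 ± 0.17 SE, edgeR adjusted p = 0.0343, where 0.372% passed). Gins1 lost its call in 7 alternatives in each comparison and Cdkn2a in 5, among them the fit of the 6 libraries alone and most fits without 1 library. Of 47 further mitotic entry and spindle genes in the paternal dose 1 ovaries, 46 were above 0 (median 0.35). Of these genes 32 were higher in every library, where 6.9% of all genes were, and 15 were higher with an unadjusted p under 0.05, where 2.7% were, with 0 past the adjusted threshold. In F1 ovary at dose 1, 41 of the 47 were below 0 (median -0.17), and 9 had an unadjusted p under 0.05, where 8.33% of all genes had one in either direction. The 41 licensing and fork genes had medians of 0.15 in the paternal dose 1 and 0.23 in the maternal dose 2 ovaries. Of 21 G1 cyclins, CDKs and RB-E2F genes 18 were above 0 in the paternal dose 1 ovaries, with a median of 0.05.

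Between the organs 115 of the 133 other genes differed, 56 higher in testis and 59 in ovary, near the 88.8% of all genes. Ccna1, the germ cell A cyclin, was at 152 ± 31.3 CPM in testis and 1.66 ± 3.69 CPM in ovary, opposite in direction to Ccna2. Myc (81.9 ± 9.37 against 0.923 ± 0.289 CPM), the D cyclin Ccnd2 (205 ± 39.0 against 14.5 ± 2.36 CPM) and Cdk4 (314 ± 47.4 against 36.7 ± 4.78 CPM) were higher in ovary. The ovary values of Ccna1 include F1 control A, the library with spermatid transcripts.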

How the data were processed

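The authors deposited raw read counts per gene, 1 table per organ, with 26264 genes and 27 libraries each. Per the submitters' processing notes, the build was mm39 and the tools named are featureCounts 2.0.3, TopHat2 2.1.1 and Bowtie2 2.4.5, along with SAMtools 1.13, FastQC 1.19 and bcl2fastq 2.20. DESeq2 1.32.0 is named as well, but the deposited values are raw. Per the labels, libraries came from a stranded mRNA kit with reads of 100 nt. Which annotation and which strand option the counting used is not given in the sources used here. Near-identical copies and antisense genes are therefore uncertain. Every column was mapped to a sample, with 0 left over. The 41 genes and all other lists were chosen with earlier results of these data known.

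Counts were fitted with edgeR 4.0.16 (R 4.3.3) by the quasi-likelihood test with Benjamini-Hochberg adjustment at 0.05, apart for each organ and generation (9 libraries in F1, 18 in F2), after TMM scaling and filterByExpr (minimum count 10). This left 19025, 19379, 17896 and 17400 genes in F1 testis, F2 testis, F1 ovary and F2 ovary, and 20 comparisons. The organs were compared over 12 unexposed libraries (6 each) with generation as a covariate. A prior count of 2 entered log2 CPM. Exact permutation tests were not run, since 3 libraries against 3 allow no p under 0.1. Exon lengths and the GC content of the longest protein-coding transcript came from GENCODE (GRCm38), and promoters from RefSeq. The edgeR step was run on simulated counts built from F2 ovary, with larger changes than most of those given for exposure. No simulated library stood apart, so the run does not cover small changes or such libraries. Replicates differed by more than counting noise (lowest chi-square per degree of freedom 7.43).

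Named genes were those past the threshold, a fixed list of genes by role, up to 5 a direction with the largest fold change among those with an unadjusted p under 0.05 and groups that do not overlap, and 5 a direction between organs. Genes given for an extreme value in 1 library, or in the direct tests, were named after their values were seen. Alternatives were RLE size factors, no low-count filter, a replicate block, DESeq2 1.42.0, only the 6 libraries compared, library totals (organs) and leaving out each library. Fits without the libraries that stand apart were added after seeing the data.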

Additional observations from a re-analysis of the deposited data

How the results depend on the processing

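The count of genes past the adjusted threshold was 0 in all 20 exposure comparisons, and stayed there except as follows. DESeq2 gave 2 for maternal dose 2 against the control cross, 1 for paternal dose 1 against the control cross, 1 for maternal against paternal dose 1 and 4 for maternal against paternal dose 2 in F2 testis, and 1 for paternal dose 1 in F2 ovary. Replicate letters showed no pairing on average: over same-letter pairs the mean correlation of deviations was -0.08 to 0.03 by organ and generation. Single pairs ran from -0.58 to 0.45 in F1 ovary and from -0.37 to 0.37 in F1 testis (9 pairs each). Pairing of some libraries therefore cannot be judged from the means. With the letter as a replicate block, 2 genes passed for maternal dose 2 against the control cross (Cdc20 and Tyms) and 3 for maternal against paternal dose 2, both in F2 testis, and 0 in the 18 other comparisons. Leaving out 1 library gave 0 to 11 genes for maternal dose 1 against the control cross and 0 to 5 against paternal dose 1 in F2 ovary, the highest without maternal dose 1 A, and 0 elsewhere. The counts under these alternatives have no share of all genes beside them. Between the organs the count was 35 to 37 when 1 library was left out. The sign of Ccne1 (testis over ovary) turned to 0.20 with RLE and 0.20 with DESeq2, and leaving out 1 library gave -0.13 to 0.095, above 0 without testis F1 control A (0.02) or B (0.02) or testis control cross A (0.081) or C. The sign of Top2a turned to -0.36 with library totals, and leaving out 1 library gave -0.047 (without ovary control cross B) to 0.22. The cause was not tested. The lowest library held 31553824 counts, and each group only 3 libraries.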
